A study of Homo sapiens with 18 samples.

Results

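Desmosome gene expression was followed in the cell variants of 2 human pancreatic ductal adenocarcinoma (PDAC) lines. The set was fixed by gene symbol: the desmogleins DSG2 and DSG3, the desmocollins DSC2 and DSC3, desmoplakin (DSP), the plakophilins PKP1, PKP2 and PKP3, plakoglobin (JUP) and PERP. All 10 symbols were found among the 40266 symbols of the expression table, and 9 of them, all but PKP1, passed the filter that left 16093 genes for the tests, which asked for 1 TPM or more in 3 libraries or more. TPM (a transcript's share of all transcripts in a library, on a fixed total) is a level corrected for transcript length, so that genes can be compared with each other.

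Poly-A RNA was sequenced in 18 libraries, 3 for each of 6 groups: the parental, Holoclone and Paraclone variants of the lines Panc1 and Panc89. Panc1 comes from a primary tumour and served as the mesenchymal model, whereas Panc89 comes from a lymph node metastasis and served as the epithelial model. Holoclone cells (the colony type taken to hold cancer stem cells) and Paraclone cells (the non-stem counterpart) had been grown out of single cells of each line, while parental cells are the uncloned population. No group carried a treatment or an engineered allele. The 3 libraries of a group came from 3 passages of the same cells, so the spread between them is that of passages and not of independently derived clones, and a difference between Holoclone and Paraclone cells cannot be told apart from a difference between the clones that were picked.

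Desmosomes are the spot-like junctions that couple the keratin filaments of neighbouring epithelial cells. The desmogleins and desmocollins are cadherins that bind across the gap between the cells. Inside the cell, their tails hold the armadillo proteins plakoglobin and the plakophilins, and these hold desmoplakin, the plakin that ties the plaque to keratin. PERP is a membrane protein needed for stable desmosomes in stratified epithelia. DSP and JUP belong to desmosomes in general. DSG2 and DSC2 are the cadherins of simple epithelia such as the pancreatic duct, whereas DSG3, DSC3 and PKP1 are best known from stratified epithelia such as the skin.

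The cadherin genes lie side by side. On GRCh38 (GENCODE 44), DSC3 (chromosome 18, 30989365 to 31042815), DSC2 (31058840 to 31102522), DSG3 (31447741 to 31478702) and DSG2 (31498177 to 31549008) fall within 560 kb, the desmocollins on the minus strand and the desmogleins on the plus strand. The other members are on other chromosomes. DSP (7541338 to 7586714) and PERP (138088505 to 138107419) are on chromosome 6, PKP1 (201283452 to 201332993) is on chromosome 1, PKP2 (32790745 to 32896798) is on chromosome 12, PKP3 (392614 to 404908) is on chromosome 11 and JUP (41754604 to 41786931) is on chromosome 17. All 10 are protein coding.

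The sequence upstream of the neighbouring desmoglein genes is shown because their levels differed in Panc1. DSG2 was expressed in both lines, though under 1 TPM in Panc1 Paraclone cells, while DSG3 was near 0 in every Panc1 library. Both stretches are the 250 bases before the RefSeq start (GRCh38.p14, plus strand, chr18:31497927-31498176 and chr18:31447491-31447740), outside all annotated exons of their gene. Below them is the part of the DSC2 window that holds no annotated exon (149 bases, minus strand, chr18:31102523-31102671). Capitals mark the E-box CAGGTG, or CACCTG on the other strand, the core sequence bound by ZEB and SNAI repressors.
DSG2: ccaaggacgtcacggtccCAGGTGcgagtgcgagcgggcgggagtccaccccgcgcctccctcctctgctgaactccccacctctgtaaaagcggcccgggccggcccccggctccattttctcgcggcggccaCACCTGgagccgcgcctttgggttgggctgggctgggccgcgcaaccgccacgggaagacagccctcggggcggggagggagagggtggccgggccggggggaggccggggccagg
DSG3: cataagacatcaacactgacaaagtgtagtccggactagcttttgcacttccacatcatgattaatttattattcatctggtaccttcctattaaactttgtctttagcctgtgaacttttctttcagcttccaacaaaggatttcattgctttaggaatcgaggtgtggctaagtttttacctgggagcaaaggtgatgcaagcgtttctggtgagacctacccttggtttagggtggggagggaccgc
DSC2: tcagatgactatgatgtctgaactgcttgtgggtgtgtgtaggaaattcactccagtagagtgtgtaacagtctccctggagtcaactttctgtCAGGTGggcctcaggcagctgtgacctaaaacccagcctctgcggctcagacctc

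The DSG2 stretch was rich in G and C (75.2%) and held the E-box at 232 and 116 bases before the start, counted from the first base of the motif. The DSG3 stretch had 42.8% G and C and no E-box, and that of DSC2 held one at 156 bases. RefSeq gave 10 such windows for 8 of the 10 members, with 2 alternative starts each for DSC2 and JUP, and none for PKP2 and PKP3. The E-box was in 4 of the 10 windows, those of DSG2, DSC2, DSP and JUP, and in 17.5% of 35116 windows of the same length over all genes. For DSP and JUP, whose windows overlap exons of other transcripts, only the motifs with 10 bases on either side are given, at 178 and 85 bases before the DSP start (chr6:7541483-7541508 and chr6:7541576-7541601, plus strand) and at 54 and 43 bases before the second JUP start (chr17:41786015-41786040 and chr17:41786004-41786029, minus strand). The printed JUP stretches share bases, but their motifs do not overlap.
DSP, 178 bases: gcggcgggcgCAGGTGgggaggggcg
DSP, 85 bases: agaaaccggcCAGGTGtggcctaggc
JUP, 54 bases: actctggcccCACCTGccgagcaggt
JUP, 43 bases: acctgccgagCAGGTGagcgcacgga

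Of the other motifs searched on both strands, the AP-1 site TGANTCA was in 1 window, that of PERP at 101 bases (chr6:138107504-138107530, minus strand), against 6.57% of all windows, and AACNGGTT of the Grainyhead-like factors was in 0 of 10, against 1.49%. None of the motifs overlapped a different one. These are matches of letters only.
PERP, 101 bases: gggcgcgctcTGAGTCAccggaatcta

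Over the whole series, library sums lay between 985339 and 988066 TPM, and 12932 to 14199 genes reached 1 TPM. The mean correlation of a library with the others of its group was between 0.9615 and 0.9886. The values hold no counts, so sequencing depth and counting error are unknown. Markers of leukocytes (PTPRC, CD3E), of endothelium (VWF) and of fibroblasts (DCN, LUM, PDGFRB) had group means under 1 TPM in all 6 groups. CD68 (11.1 to 134 TPM over the groups), which is listed with leukocytes, and PECAM1 and CDH5 (60.1 and 3.78 TPM in parental Panc89 cells), which are listed with endothelium, did not, and their part in the results was not tested. The epithelial marker KRT8 was high in all groups (410.5 to 1411 TPM). CDH1 of the same list had 0.990 to 2.84 TPM in Panc1 and 75.3 to 98.0 TPM in Panc89 groups. Of the 5 epithelial markers, 3 were higher in parental Panc89 than parental Panc1 cells (27.5% of all genes) and 1 was lower (38.5%). The mesenchymal marker VIM had group means of 2465 to 4318 TPM in Panc1 and at most 0.361 TPM in Panc89 cells. Of the 4 mesenchymal markers, 1 was higher and 2 were lower in Panc89 between parental cells. Between Paraclone cells, 2 were higher in Panc89 (30.2% of all genes) and 2 lower (30.4%), with CDH2 among the higher (4.06 against 1.38 TPM).

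Desmoplakin, which ties the plaque to keratin, gave the clearest picture of how the groups differed. In Panc1 cells it was measured at 5.98, 7.26 and 5.54 TPM in parental, 15.8, 17.0 and 16.2 TPM in Holoclone and 0.338, 0.266 and 0.248 TPM in Paraclone libraries. In Panc89 cells the values were 52.9, 62.7 and 57.0 TPM in parental, 49.5, 38.7 and 43.7 TPM in Holoclone and 90.0, 68.4 and 68.1 TPM in Paraclone libraries. Thus the Paraclone cells were the lowest group of Panc1 and the highest of Panc89, and none of the 6 groups overlapped another.

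DSG2, the desmoglein of simple epithelia, followed the same order in Panc1 cells, with 9.08, 9.76 and 8.84 TPM in parental, 15.3, 21.9 and 15.0 TPM in Holoclone and 0.446, 0.284 and 0.257 TPM in Paraclone libraries. In Panc89 cells it reached 38.6, 40.5 and 38.7 TPM in parental, 69.0, 60.2 and 55.5 TPM in Holoclone and 78.2, 66.8 and 70.8 TPM in Paraclone libraries. The Panc1 groups were apart from each other, while the Holoclone and Paraclone cells of Panc89 overlapped above the parental cells.

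DSC2, the desmocollin of simple epithelia, had 1.74, 1.42 and 2.13 TPM in parental, 5.72, 6.87 and 6.07 TPM in Holoclone and 0.0555, 0.0393 and 0.0318 TPM in Paraclone libraries of Panc1. In Panc89 the libraries read 7.37, 8.74 and 8.19 TPM in parental, 7.65, 4.58 and 4.31 TPM in Holoclone and 16.0, 16.4 and 13.9 TPM in Paraclone cells. Here the Holoclone cells of both lines overlapped, and it was the Paraclone cells that lay at opposite ends.

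DSG3, the desmoglein of basal stratified cells, was listed at 0 in 5 of the 9 Panc1 libraries and at 0.0064 TPM or less in the other 4. In Panc89 cells it reached 7.59, 6.99 and 7.56 TPM in parental, 16.7, 34.4 and 44.6 TPM in Holoclone and 12.6, 6.34 and 9.16 TPM in Paraclone libraries. All Holoclone libraries were above the others, although Holoclone replicate 1 lay well under its 2 companions.

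DSC3, the desmocollin that partners DSG3 in stratified epithelia, was low in every library. It had 0.0986, 0.307 and 0.0860 TPM in parental, 0.995, 0.848 and 0.696 TPM in Holoclone and 0.00572, 0.00811 and 0.00786 TPM in Paraclone libraries of Panc1. In Panc89 it had 1.29, 0.930 and 1.21 TPM in parental, 1.36, 0.756 and 0.651 TPM in Holoclone and 0.0104, 0.0134 and 0.00429 TPM in Paraclone libraries. Its Paraclone cells were near 0 in both lines, below every parental and Holoclone library.

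Among the armadillo proteins, PKP2 had 0.532, 0.517 and 0.375 TPM in parental, 1.67, 1.38 and 2.04 TPM in Holoclone and 0.349, 0.269 and 0.181 TPM in Paraclone libraries of Panc1. In Panc89 cells it ranged from 28.3 to 33.1 TPM in parental, from 32.1 to 62.0 TPM in Holoclone and from 48.9 to 57.8 TPM in Paraclone libraries. All Panc89 libraries were above all Panc1 libraries. PKP3, the most abundant of the plakophilins in the set, had 36.4 to 53.1 TPM in parental, 20.5 to 22.6 TPM in Holoclone and 29.1 to 30.3 TPM in Paraclone libraries of Panc1, and 105 to 114, 189 to 231 and 178 to 210 TPM in those of Panc89. In Panc1, then, PKP3 ran in another order than desmoplakin and was lowest in Holoclone cells. PKP1, the plakophilin of the upper epidermis, did not exceed 0.0890 TPM in any library.

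Plakoglobin, which is shared with adherens junctions, was present at a high level throughout. JUP had 92.5, 114 and 119 TPM in parental, 188, 158 and 166 TPM in Holoclone and 105, 132 and 141 TPM in Paraclone libraries of Panc1. In Panc89 it ranged from 264 to 273 TPM in parental, from 299 to 338 TPM in Holoclone and from 258 to 330 TPM in Paraclone cells. Its group means spanned 109 to 314 TPM. PERP had 110, 166 and 145 TPM in parental, 140, 231 and 132 TPM in Holoclone and 40.4, 36.3 and 35.3 TPM in Paraclone libraries of Panc1, and between 96.9 and 150 TPM in all 9 Panc89 libraries. The Panc1 Paraclone cells were thus the lowest group of PERP by a wide gap.

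**Figure D1:**
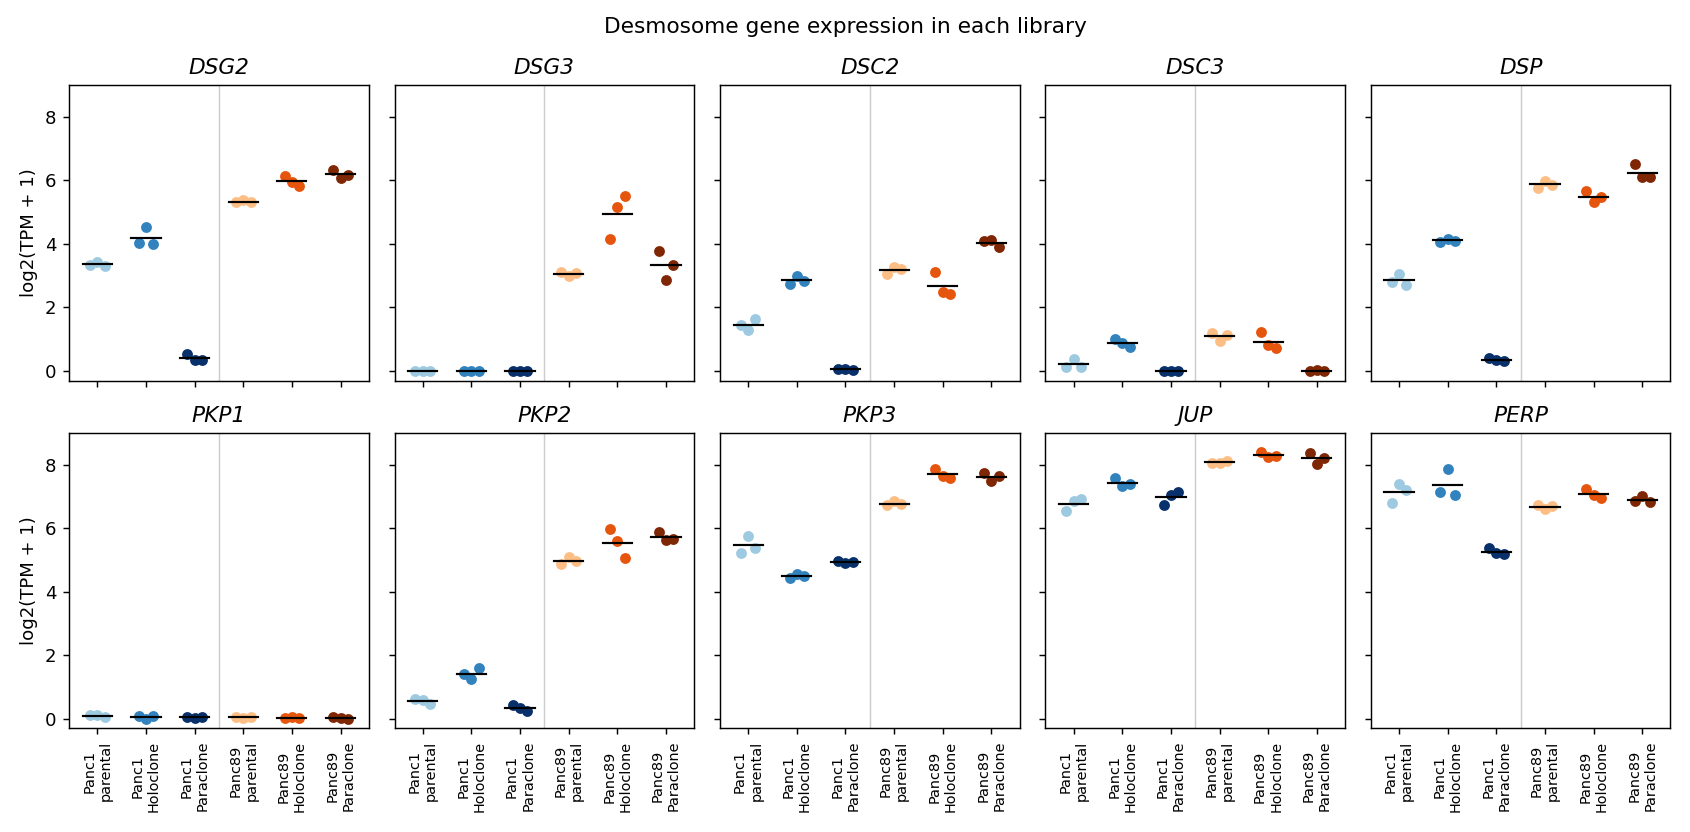
Level of each desmosome gene as log2(TPM + 1), where each point is 1 library and each black line the mean of 3, by group (blue, Panc1 and orange, Panc89). In the third group of each panel, Panc1 Paraclone cells, DSG2, DSC2, DSC3, DSP and PKP2 are near 0 while JUP has a mean of 6.98 and PKP3 of 4.94; DSG3 is near 0 in all Panc1 groups and PKP1 in all 6.

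The first question was how Holoclone and Paraclone cells of the same line differ. The p-values below are from limma, adjusted by Benjamini-Hochberg over all genes tested, with the difference given on the log2(TPM + 1) scale. This scale understates the fold of genes near or under 1 TPM. Each SE is pooled over all 6 groups, so it need not match the spread of the groups compared.

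In Panc1, the cadherins DSG2, DSC2 and DSC3, the plaque proteins DSP, PKP2 and JUP, and PERP were higher in Holoclone than in Paraclone cells, and PKP3 was lower. Of the 9 members tested, 7 were thus higher, where 27.4% of all genes tested were called higher, and 1 was lower, where 9.97% were called lower. DSG2 was higher by 3.77 (SE 0.135, adjusted p = 1.54e-11) and DSP by 3.75 (SE 0.133, adjusted p = 1.40e-11). As ratios of mean TPM these were 52.8-fold and 57.4-fold. DSC2 was higher by 2.79 (SE 0.168), PERP by 2.09 (SE 0.182), PKP2 by 1.09 (SE 0.183) and DSC3 by 0.87 (SE 0.141), all with an adjusted p of at most 0.000251. JUP was higher by 0.45 (SE 0.128, adjusted p = 0.0124), a ratio of 1.36, but was no longer called after upper quartile (0.19, adjusted p = 0.383) or median-of-ratios scaling of the TPM (0.17, adjusted p = 0.428), or without Holoclone replicate 1 (0.37, adjusted p = 0.0588) or Paraclone replicate 1 (0.32, adjusted p = 0.0620). PKP3 was lower by 0.44 on this scale (−0.44, SE 0.122, adjusted p = 0.0100), and DSG3, listed near 0 in both groups, did not pass (adjusted p = 1.0). The median difference was 1.09 over the 9 members and 0.19 over all genes, and both scalings brought the latter to between 0 and 0.00231.

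In Panc89, the same comparison gave calls in both directions: DSG3 and DSC3 were higher in Holoclone cells, and DSC2 and DSP were lower. These 2 higher and 2 lower members of 9 stood against 22.4% and 13.3% of all genes, so the share of higher members was near that of all genes. DSG3 was higher by 1.61 (SE 0.265, adjusted p = 0.000216), a ratio of 3.40, and DSC3 by 0.91 (SE 0.141, adjusted p = 0.000126). DSC2 differed by −1.37 (SE 0.168, adjusted p = 1.33e-05) and DSP by −0.76 (SE 0.133, adjusted p = 0.000361), or 2.81-fold and 1.72-fold more TPM in Paraclone cells. DSG2, PKP2, PKP3, JUP and PERP did not pass, with 95% intervals that lay between −0.573 (the lower end for PKP2) and 0.573 (the upper end for PERP). The median difference was 0.08 over the members and 0.09 over all genes.

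**Figure D2:**
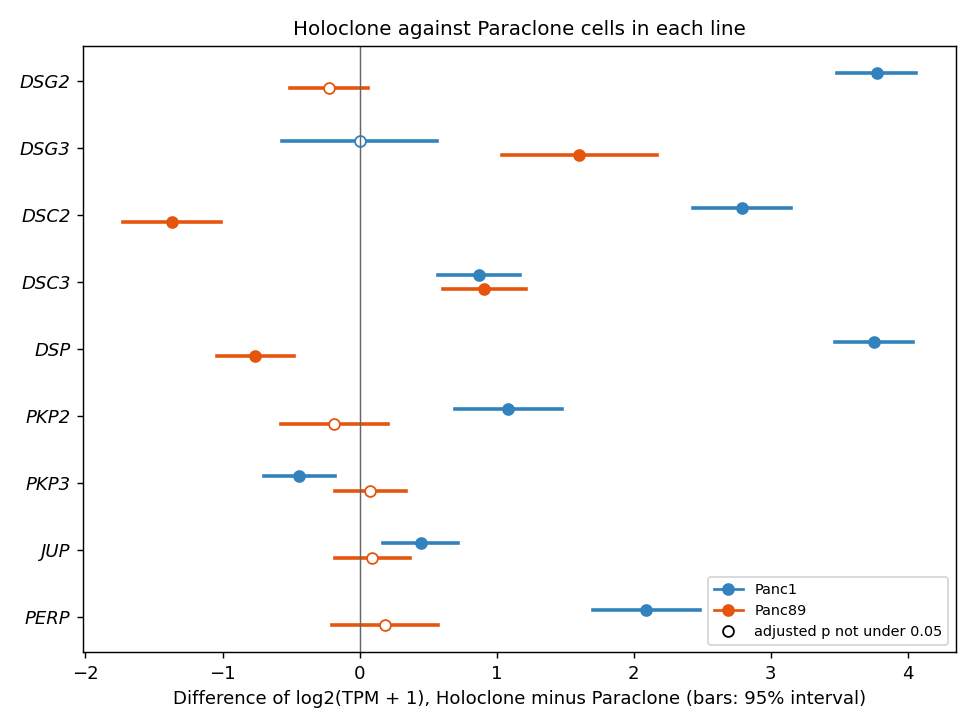
Difference of log2(TPM + 1) between Holoclone and Paraclone cells for the 9 members tested, with 95% intervals, in Panc1 (blue) and Panc89 (orange), where open points did not pass an adjusted p of 0.05. DSG2, DSC2 and DSP lie at 3.77, 2.79 and 3.75 in Panc1 and at −0.22, −1.37 and −0.76 in Panc89, whereas the points of DSC3 nearly coincide.

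Whether the change differed between the lines was tested by the interaction term, the Panc89 difference minus the Panc1 difference. It was negative for 5 members of 9 (20.4% of all genes) and positive for 2 (14.8% of all genes). The term was −4.51 for DSP (SE 0.188, adjusted p = 1.94e-10), −4.16 for DSC2 (SE 0.237), −4.00 for DSG2 (SE 0.191), −1.91 for PERP (SE 0.258) and −1.27 for PKP2 (SE 0.259). With a pseudocount of 0.1, that of DSC2 (−6.99) was larger than that of DSP (−6.20). DSG3 had a positive term of 1.60 (SE 0.374, adjusted p = 0.00352) and PKP3 one of 0.52 (SE 0.173, adjusted p = 0.0289). Since DSG3 was near 0 in every Panc1 library, its term only restates its Panc89 difference. The limit given for the SE of that difference holds here too. The term of PKP3 was no longer called when any of 5 libraries was left out, namely Panc1 Holoclone replicate 1 (0.48, adjusted p = 0.0644) or 3 (0.52, adjusted p = 0.0510), Panc1 Paraclone replicate 1 (0.50, adjusted p = 0.0504), Panc89 Holoclone replicate 1 (0.43, adjusted p = 0.0625) or Panc89 Paraclone replicate 2 (0.46, adjusted p = 0.0585). For JUP (−0.35, 95% interval −0.738 to 0.0352) and DSC3 (0.04, 95% interval −0.385 to 0.466) no difference between the lines was called.

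The parental cells were set against the clones next. These comparisons share the parental libraries, and in parental cells, which are a mixed population, fewer cells of a type and less RNA per cell cannot be told apart. Against parental Panc1 cells, DSG2, DSC2, DSC3, DSP, PKP2 and JUP were higher in Holoclone cells and PKP3 was lower, which is 6 higher (5.87% of all genes) and 1 lower (5.06%) of 9. DSC2 rose by 1.39 (SE 0.168) and DSP by 1.26 (SE 0.133), both with an adjusted p of at most 5.52e-05, DSG2 rose by 0.83 (SE 0.135, adjusted p = 0.000767), and PKP3 differed by −0.96 (SE 0.122, adjusted p = 9.30e-05). PERP did not pass (0.23, adjusted p = 0.520).

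Panc1 Paraclone cells had 0 members higher (7.31% of all genes) and 5 lower (21.3%) than parental cells. These were DSG2 (−2.95, SE 0.135), DSP (−2.49, SE 0.133), PERP (−1.87, SE 0.182), DSC2 (−1.40, SE 0.168) and PKP3 (−0.52, SE 0.122), the last with an adjusted p of 0.00504. PKP3 was no longer called after upper quartile (−0.34, adjusted p = 0.0554) or median-of-ratios scaling (−0.29, adjusted p = 0.112), or with the groups compared alone (−0.52, adjusted p = 0.0580). JUP (0.21, adjusted p = 0.252, but called higher after median-of-ratios scaling with 0.44, adjusted p = 0.0419), DSC3 (−0.20, adjusted p = 0.320) and PKP2 (−0.22, adjusted p = 0.417) did not pass. With a pseudocount of 0.1 in place of 1, which gives low levels more weight, DSC3 (−1.20, adjusted p = 0.0164) and PKP2 (−0.66, adjusted p = 0.0461) were also lower.

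In Panc89, 4 members were higher in Holoclone than in parental cells (16.1% of all genes) and 2 were lower (8.61%). DSG3 was higher by 1.87 (SE 0.265, adjusted p = 8.79e-05), PKP3 by 0.92 (SE 0.122, adjusted p = 5.05e-05) and DSG2 by 0.63 (SE 0.135, adjusted p = 0.00273). The pooled SE of DSG3 has the limit given above, and its adjusted p here reached 0.0188 over the alternative settings. PKP2 (0.57, adjusted p = 0.0335), DSC2 (−0.52, adjusted p = 0.0346) and DSP (−0.38, adjusted p = 0.0461) were close to the threshold. Each of these 3 calls was lost without parental replicate 1 (adjusted p = 0.109, 0.0512 and 0.0578), without parental replicate 3 (0.0868, 0.0886 and 0.102) and without Holoclone replicate 2 (0.0949, 0.137 and 0.186), leaving 3 members called. DSC2 and DSP were also lost without parental replicate 2 (0.109 and 0.159) or Holoclone replicate 3 (0.151 and 0.0992), and PKP2 without Holoclone replicate 1 (0.35, adjusted p = 0.136). Without parental replicate 1 the differences of DSC2 (−0.58) and DSP (−0.44) were no smaller than with it. The groups of DSC2 and of PKP2 overlapped.

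Panc89 Paraclone cells had 4 members higher (9.37% of all genes) and 1 lower (10%) than parental cells. DSG2 rose by 0.85 (SE 0.135), DSC2 by 0.85 (SE 0.168), PKP3 by 0.84 (SE 0.122) and PKP2 by 0.75 (SE 0.183), with adjusted p-values of at most 0.00856. DSC3 was lower (−1.08, SE 0.141, adjusted p = 6.14e-05). DSP was higher in 3 of 3 Paraclone libraries but did not pass (0.38, adjusted p = 0.0591). It was called after median-of-ratios scaling (0.41, adjusted p = 0.0399) and without Paraclone replicate 2 (0.44, adjusted p = 0.0377).

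The second question was how the epithelial line differs from the mesenchymal one within each cell variant. Between parental cells, 8 of 9 members were higher in Panc89 (27.5% of all genes) and 1 was lower (38.5%). DSG3 and DSC3 reached 1 TPM in Panc89 libraries only. They thus entered the counts between the lines through Panc89, which favours a call of higher there. PKP2 differed by 4.41 (SE 0.183, adjusted p = 8.76e-12), DSG3 by 3.06 (SE 0.265), DSP by 3.01 (SE 0.133), DSG2 by 1.98 (SE 0.135), DSC2 by 1.73 (SE 0.168), PKP3 by 1.32 (SE 0.122), JUP by 1.30 (SE 0.128) and DSC3 by 0.88 (SE 0.141). This order depends on the pseudocount, since with 0.1 in place of 1 DSG3 (6.17) was above PKP2 (5.74). As ratios of mean TPM, these were 64.2 for PKP2, 9.19 for DSP, 4.60 for DSC2, 4.26 for DSG2, 2.50 for PKP3 and 2.46 for JUP. DSG3 had 7.38 TPM in Panc89 and was near 0 in Panc1 (0.00419 TPM), so no ratio is given for it. PERP was lower (−0.45, SE 0.182, adjusted p = 0.0418), but not after upper quartile scaling (−0.26, adjusted p = 0.199), nor without Panc1 parental replicate 2 (−0.32, adjusted p = 0.173) or 4 of the 5 other libraries. The median was 1.73 over the members and −0.18 over all genes.

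Between Holoclone cells, 6 members were higher in Panc89 (29.3% of all genes) and 0 were lower (36.4%). DSG3 differed by 4.93 (SE 0.265), PKP2 by 4.11 (SE 0.183), PKP3 by 3.19 (SE 0.122), DSG2 by 1.78 (SE 0.135), DSP by 1.37 (SE 0.133) and JUP by 0.87 (SE 0.128). DSC2 (−0.18, 95% interval −0.539 to 0.175) and DSC3 (0.04, 95% interval −0.257 to 0.345) did not pass. Without Panc89 Holoclone replicate 1, DSC2 was called lower in Panc89 (−0.40, adjusted p = 0.0172). The interval of PERP was −0.667 to 0.109.

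Between Paraclone cells, 8 members were higher in Panc89 (30.2% of all genes) and 0 were lower (30.4%). DSP differed by 5.88 (SE 0.133), DSG2 by 5.78 (SE 0.135), PKP2 by 5.38 (SE 0.183), DSC2 by 3.98 (SE 0.168), DSG3 by 3.33 (SE 0.265), PKP3 by 2.68 (SE 0.122), PERP by 1.63 (SE 0.182) and JUP by 1.22 (SE 0.128). The ratio of mean TPM was 265 for DSP, 219 for DSG2, 195 for PKP2 and 366 for DSC2, with the level in Panc1 between 0.0422 and 0.329 TPM. DSC3 did not pass (0.00, 95% interval −0.298 to 0.304) and was near 0 in both.

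**Figure D3:**
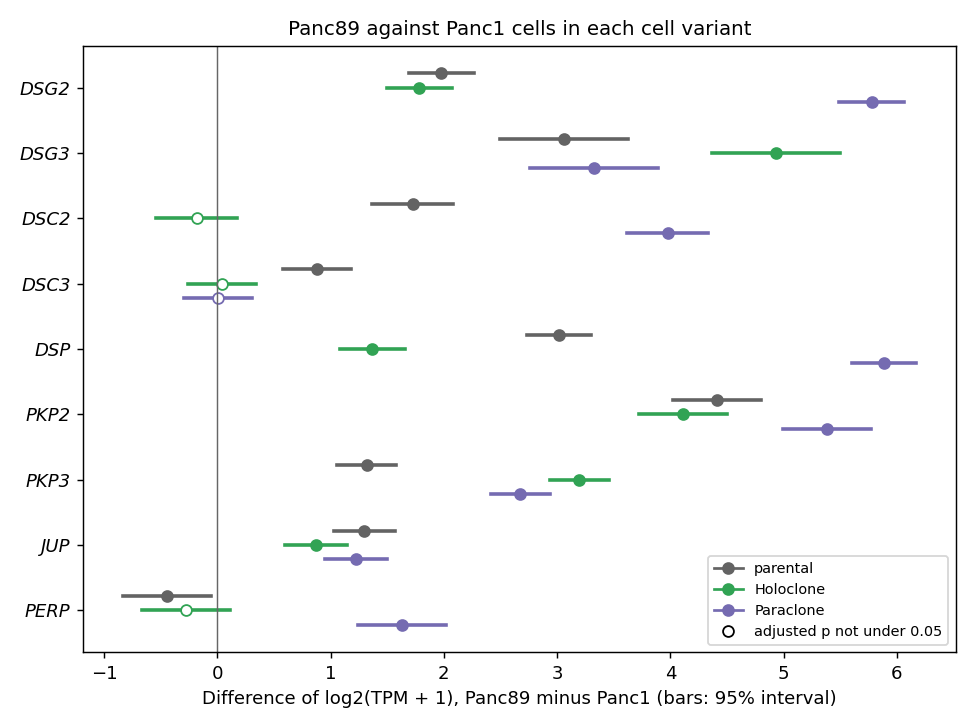
Difference of log2(TPM + 1) between Panc89 and Panc1 for the 9 members tested, with 95% intervals, in parental (grey), Holoclone (green) and Paraclone cells (purple), where open points did not pass an adjusted p of 0.05. DSP and DSG2 reach 5.88 and 5.78 between Paraclone cells and 1.37 and 1.78 between Holoclone cells, and JUP stays between 0.87 and 1.30.

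Because TPM are per length, the members were also added up by role. The 4 cadherins together gave 11.2 ± 0.301 TPM in parental, 24.5 ± 4.45 TPM in Holoclone and 0.380 ± 0.115 TPM in Paraclone cells of Panc1, and 55.9 ± 1.18, 99.9 ± 5.14 and 96.8 ± 9.01 TPM in those of Panc89 (SD, n = 3). The 3 plakophilins gave 43.95 ± 8.67, 23.3 ± 0.974 and 29.9 ± 0.669 TPM in Panc1, and 139 ± 7.19, 254 ± 36.7 and 247 ± 20.1 TPM in Panc89 (SD, n = 3). In Panc1 Paraclone cells, cadherin RNA was hence scarce beside abundant plakophilin and plakoglobin RNA. For 100 TPM of JUP there were 5.82 ± 1.00 TPM of DSP in parental, 9.61 ± 1.16 TPM in Holoclone and 0.234 ± 0.0779 TPM in Paraclone cells of Panc1 (SD, n = 3). In Panc89 there were 21.5 ± 1.98, 14.0 ± 0.932 and 25.6 ± 2.33 TPM (SD, n = 3).

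The shares of single members within these sums are given as a description, since their test of 3 against 3 libraries cannot give a p under 0.1. In Panc89 the share of DSG3 in the summed cadherin TPM was 13.2% ± 0.863 in parental, 31.5% ± 12.6 in Holoclone and 9.55% ± 2.37 in Paraclone cells, and that of DSC2 was 14.5% ± 0.948, 5.58% ± 2.16 and 16.1% ± 1.98 (SD, n = 3). In Panc1, DSG2 made up 82.7% ± 2.53, 70.8% ± 2.75 and 86.5% ± 0.810, and DSC2 15.8% ± 3.44, 25.7% ± 2.37 and 11.1% ± 0.647 (SD, n = 3). Among the plakophilins, PKP2 held 1.10% ± 0.288 in parental, 7.29% ± 1.41 in Holoclone and 0.887% ± 0.265 in Paraclone cells of Panc1, against 21.9% ± 0.659, 18.3% ± 3.40 and 21.0% ± 0.906 in Panc89 (SD, n = 3). In Panc89, Holoclone and Paraclone libraries did not overlap for the shares of DSG2, DSG3, DSC2 and DSC3. In Panc1 they did not overlap for the shares of DSG2, DSC2, DSC3, PKP2 and PKP3. The ratio of DSP to JUP did not overlap in either line, while the remaining shares did. Shares of the same sum depend on each other. The exact two-sided permutation test of 3 against 3 libraries gave p = 0.1 for each share or ratio without overlap, the smallest p it allows, and 0.141 after adjustment over 72 tests.

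**Figure D4:**
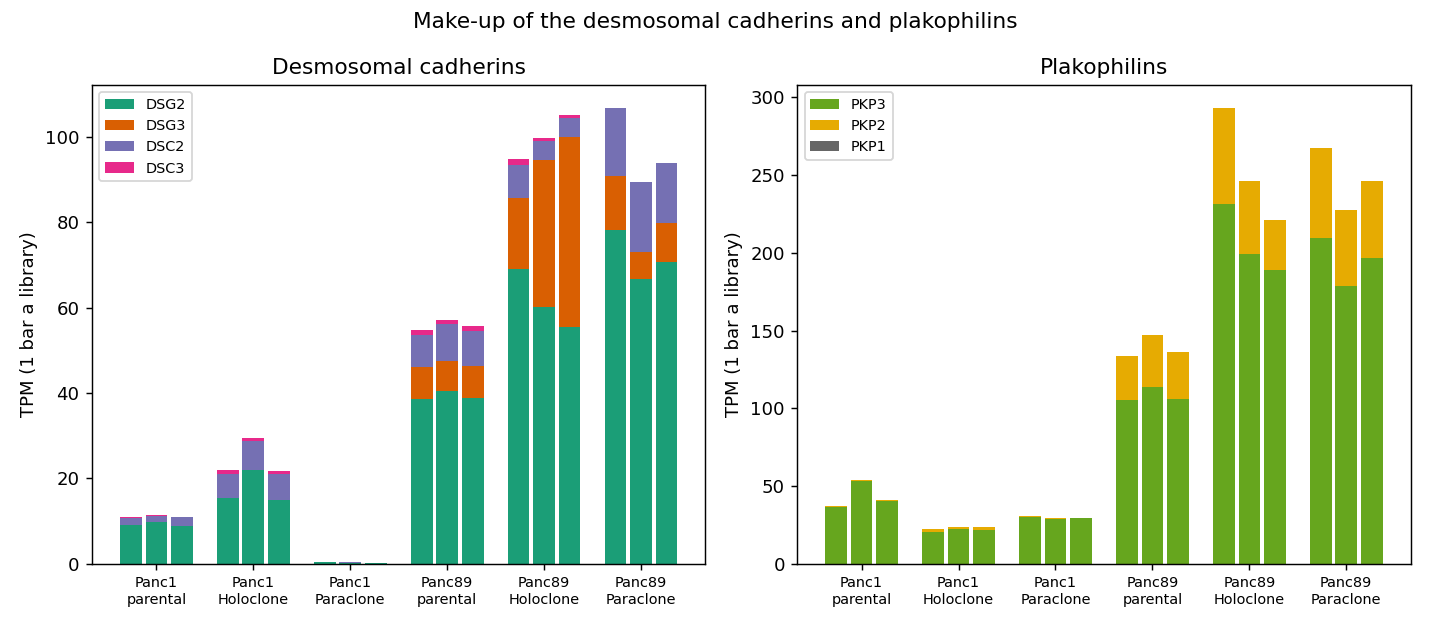
Summed TPM of the 4 desmosomal cadherins (left) and the 3 plakophilins (right), where each stacked bar is 1 library, in the order of replicates 1 to 3 within each group. The cadherin bars of Panc1 Paraclone cells do not exceed 0.511 TPM while their plakophilin bars reach 29.4 to 30.7 TPM, and the DSG3 part is widest in Panc89 Holoclone cells.

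Other genes of the junction were counted from lists. Beside these counts, 27.4% of all genes tested were called higher and 9.97% lower in Holoclone than Paraclone cells of Panc1. In Panc89 these shares were 22.4% and 13.3%. Of the desmosomal proteins outside the set, DSG1, DSG4 and DSC1 were not tested, having reached at most 0.596 TPM in any library. PKP4, a plakophilin-related protein of several junctions, was higher in Holoclone than in Paraclone cells of both lines (1.38, SE 0.154, adjusted p = 5.22e-06 in Panc1 and 0.45, SE 0.154, adjusted p = 0.0317 in Panc89). Within the cadherin cluster on chromosome 18, DSC1, DSG1 and DSG4 lie between the expressed members. Of the protein-coding genes within 500 kb of the cluster, 2 were tested. B4GALT6, a galactosyltransferase gene, was lower in Holoclone cells of both lines (−0.75, adjusted p = 0.00277 in Panc1 and −0.66, adjusted p = 0.00715 in Panc89). TRAPPC8, a vesicle transport gene, was higher by 0.85 in Panc1 (adjusted p = 3.46e-05) and did not pass in Panc89 (0.11, adjusted p = 0.490).

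Of the plakins and other desmosome-associated proteins, 3 of 4 tested were higher in Panc1 Holoclone than Paraclone cells. These were envoplakin EVPL (2.09, SE 0.260), periplakin PPL (1.99, SE 0.216) and pinin PNN (0.80, SE 0.211), while kazrin KAZN was lower (−0.93, SE 0.161), with adjusted p-values of at most 0.00742. In Panc89, EVPL was lower (−0.76, adjusted p = 0.0329), KAZN was higher (0.51, adjusted p = 0.0208), and PPL and PNN did not pass. The interaction term was called for EVPL (−2.85), PPL (−1.63) and KAZN (1.45). CDSN, corneodesmosin, was not tested.

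Of the 5 adherens junction genes, 3 were higher and 1 was lower in Panc1 Holoclone cells. CDH1, E-cadherin, ran opposite to the desmosomal cadherins there, with 0.990 TPM in Holoclone and 2.84 TPM in Paraclone cells (−0.95, SE 0.188, adjusted p = 0.000940), and CDH2, N-cadherin, was higher (2.63, SE 0.283, adjusted p = 3.44e-06). The catenins CTNNB1 (0.39) and CTNND1 (0.41) were higher and CTNNA1 did not pass. In Panc89 Holoclone cells CDH2 (0.95) and CTNND1 (0.90) were higher, and CDH1 did not pass (−0.05, adjusted p = 0.884). Between parental cells, CDH1 was higher in Panc89 by 5.05 (SE 0.188).

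Of the 8 keratins, the filaments that desmoplakin holds, 2 were higher and 1 was lower in Panc1 Holoclone than Paraclone cells. These shares were near those of all genes (27.4% and 9.97%). KRT8 (0.75) and KRT18 (0.50) were higher, although the libraries of both groups overlapped for each, and KRT19 was lower (−2.48, SE 0.286). In Panc89 Holoclone cells 0 were higher and 5 lower, namely KRT14 (−1.45), KRT6A (−1.10), KRT7 (−1.05), KRT8 (−0.98) and KRT18 (−0.89). Keratins have close relatives and pseudogenes among which reads can be divided, so their levels are uncertain.

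Hemidesmosomes anchor keratin to the basement membrane. Of their 6 genes, 0 were higher and 5 were lower in Panc1 Holoclone than Paraclone cells, with ITGB4 at −2.12 (SE 0.313), ITGA6 at −0.70, COL17A1 at −0.64, PLEC at −0.60 and CD151 at −0.55. COL17A1 had means under 1 TPM in both groups (0.0553 and 0.665 TPM). In Panc89, 3 were higher and 0 lower, with COL17A1 at 1.89 (SE 0.158), DST at 1.70 (SE 0.289) and ITGA6 at 0.84 (SE 0.141). The interaction term was positive for 4 of the 6 (14.8% of all genes). Thus in Panc1 the hemidesmosome genes called and most desmosome genes called were on opposite sides of the comparison.

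Of 12 transcription factors linked to epithelial junction genes, 11 were tested and TWIST1 was listed at 0 throughout. Between parental cells, 7 were higher in Panc89 (27.5% of all genes) and 2 lower (38.5%): KLF5 (5.57), TP63 (5.37), GRHL2 (4.74), OVOL1 (4.25), SNAI2 (3.32), OVOL2 (3.00) and SNAI1 (1.24) were higher, and ZEB1 (−4.11) and GRHL3 (−1.69) lower. TP63, GRHL2, OVOL1 and OVOL2 reached 1 TPM in Panc89 libraries only. They thus entered this count through Panc89, which favours a call of higher there. In Panc1, GRHL1 (0.69), OVOL2 (0.50) and ZEB2 (0.50) were higher in Holoclone than Paraclone cells and KLF5 (−1.36) and SNAI1 (−1.29) lower. OVOL2 (0.455 and 0.00715 TPM) and ZEB2 (0.755 and 0.234 TPM) had means under 1 TPM in both groups. The repressor ZEB1 had 4.15 ± 0.0267 in Holoclone and 3.92 ± 0.144 in Paraclone cells on the log2(TPM + 1) scale (SD, n = 3) and did not pass (0.23, adjusted p = 0.555). Its pooled SE includes the Panc89 Paraclone libraries, with an SD of 0.805. The Panc1 Holoclone libraries (16.4 to 17.0 TPM) lay above the Panc1 Paraclone libraries (12.7 to 15.7 TPM). In Panc89 Holoclone cells, TP63, the factor of basal stratified cells, was higher by 3.09 (SE 0.199), as were GRHL2 (1.79), GRHL3 (0.96) and SNAI2 (0.79), and SNAI1 (−2.50), OVOL2 (−1.91), ZEB2 (−0.96), ZEB1 (−0.95) and OVOL1 (−0.57) were lower. ZEB1 was low in Panc89, at 0.042 to 0.2537 TPM in Holoclone and 0.3184 to 3.005 TPM in Paraclone libraries.

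**Figure D5:**
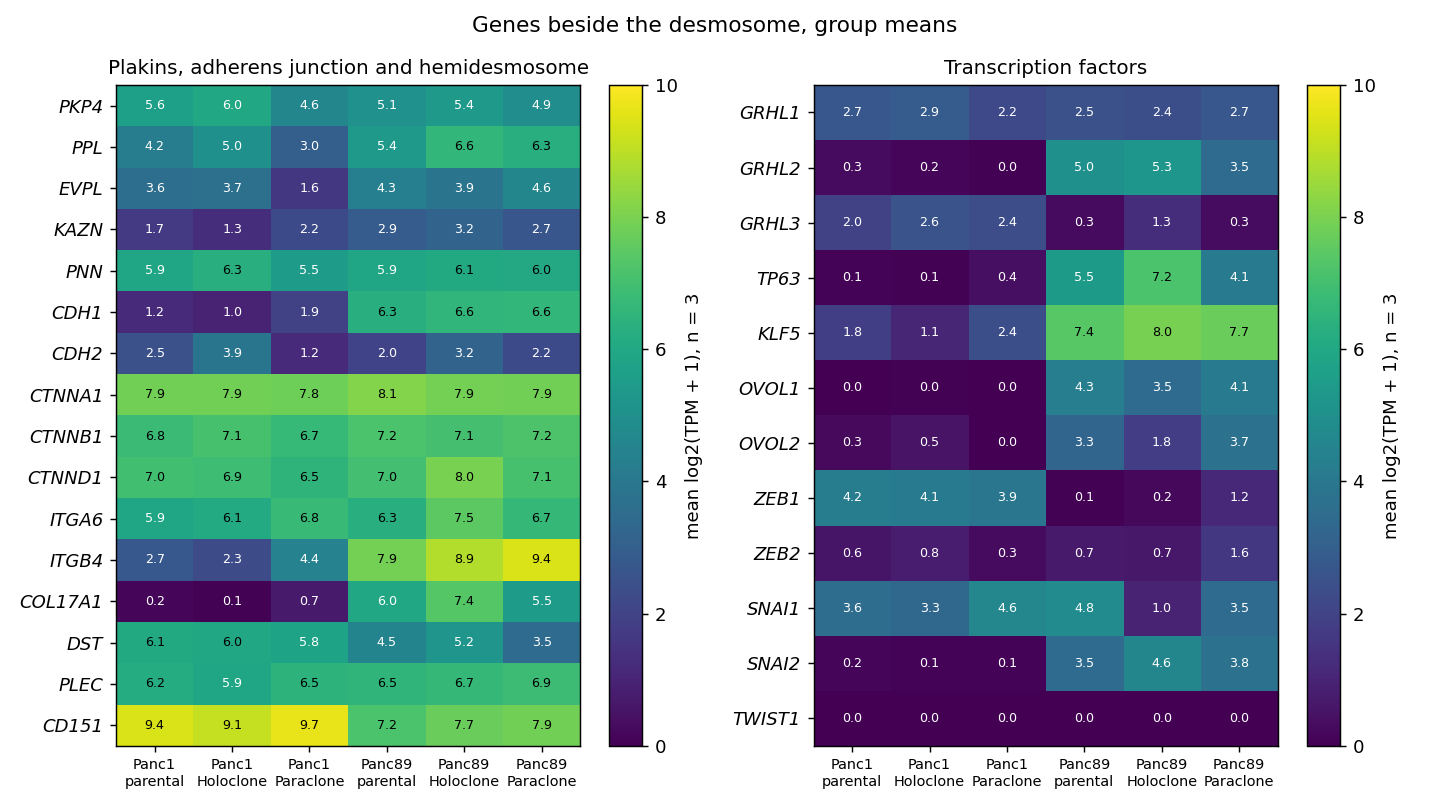
Mean log2(TPM + 1) of 3 libraries in each group (number and colour) for plakin, adherens junction and hemidesmosome genes (left) and transcription factors (right). PPL and EVPL are lowest in Panc1 Paraclone cells, CDH1 is lower in all Panc1 groups than in Panc89, and TP63 is highest in Panc89 Holoclone cells.

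The genes most like DSP and JUP were sought among 16084 other tested genes by the correlation over 18 libraries after each line's mean had been taken away. The libraries fall into 6 groups, so this describes the group pattern only. For DSP these were KDF1, a keratinocyte differentiation factor (r = 0.979), ARHGAP8 (r = 0.976), and EPCAM, the epithelial cell adhesion molecule (r = 0.974). EPCAM had 11.2 TPM in parental, 29.2 TPM in Holoclone and 1.73 TPM in Paraclone cells of Panc1, and 185, 178 and 279 TPM in those of Panc89. Its difference between Holoclone and Paraclone cells was 3.48 in Panc1 and −0.65 in Panc89. EPCAM was picked for its likeness to DSP, so these values restate that pattern and were not read as a test. For JUP the likeness was weaker: ZNF830, a zinc finger gene (r = 0.840), BCHE, butyrylcholinesterase (r = 0.828), and CCR10, a chemokine receptor (r = 0.826). Without taking away the line means, r was 0.724 for ZNF830, but −0.566 for BCHE and −0.722 for CCR10, which were low in Panc89 cells, where JUP was highest.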

How the data were processed

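The 18 libraries were assigned to line, cell variant and replicate from their labels. The authors took RNA at 3 passages per cell variant, made stranded paired-end mRNA libraries, quantified transcripts with kallisto 0.46.1 against Ensembl GRCh38 and imported scaled TPM with tximport. The deposited values are log2(TPM + 1), 1 per gene symbol, and were converted back to TPM for levels, sums and shares. Depth is unknown, and an exact 0 is reported only as listed at 0.

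limma 3.58.1 in R 4.3.3 (lmFit, eBayes with trend) was fitted to the 16093 genes that reached 1 TPM in 3 or more libraries, with 6 group means, 12 residual degrees of freedom and two-sided p-values adjusted by Benjamini-Hochberg over all genes (threshold 0.05), after a test on simulated data. DESeq2, which the authors used, needs counts and was not run. Shares and ratios were compared by exact permutation tests.

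All 10 members are named, and genes outside them come from fixed lists of junction, filament, transcription factor and marker genes, from the 3 genes most like DSP and JUP, and from the neighbours of the cadherin cluster (chosen after their values were seen). Members and lists were chosen with earlier results of these data known. Same-numbered libraries of 1 line had residual correlations of −0.318 to 0.190 (mean −0.0418, 18 pairs), so no pairing was used. Positions are from GENCODE 44 and upstream sequences from RefSeq (GRCh38.p14). Alternatives were a pseudocount of 0.1, no filter or at least 5 TPM, the groups compared alone, a replicate block, upper quartile and median-of-ratios scaling, a fold change threshold and leaving out each library. They were read for the 10 members and for counts over all genes, not for single genes outside the set. Fold changes and p-values of the authors were not used.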

Additional observations from a re-analysis of the deposited data

Results flagged for a closer look

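The change from Paraclone to Holoclone cells differed between Panc89 and Panc1 for 7 of the 9 desmosome genes tested, by the interaction term of the limma fit (Panc89 difference minus Panc1 difference, log2(TPM + 1) scale). The term was −4.51 for DSP, −4.16 for DSC2, −4.00 for DSG2, −1.91 for PERP and −1.27 for PKP2. It was 1.60 for DSG3 and 0.52 for PKP3. For DSG2, PKP2, PKP3 and PERP the difference was called in Panc1 and not in Panc89, and for DSG3 in Panc89 and not in Panc1. For DSC2 and DSP it was called in both lines with opposite sign. Over all genes tested the term was positive for 14.8% and negative for 20.4%.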

How the results depend on the processing

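Over the alternatives, 1211 values of single members kept their direction and side of the threshold, 72 were no longer called, 7 became called and 14 changed sign. The number of members called changed by over 1.5 times in these cases. Panc89 Holoclone against parental cells had 6 members called, and 3 with a pseudocount of 0.1 or with no filter. Leaving out single libraries gave 3 to 5 there, and 3 without parental replicate 1, parental replicate 3 or Holoclone replicate 2. With an absolute log2 fold change over 1 as well, the members called fell from 8 to 5 for Holoclone against Paraclone in Panc1, from 4 to 2 for the same in Panc89, from 7 to 2 for Holoclone against parental in Panc1, from 6 to 1 for that in Panc89, and from 5 to 1 for Paraclone against parental in Panc89. The values that changed sign were not called in any setting. For Holoclone against Paraclone in Panc89 they were PKP3 (−0.0148 after upper quartile and −0.0591 after median-of-ratios scaling, and −0.0047 to 0.141 without single libraries, the lowest without Holoclone replicate 1), JUP (−0.0003 and −0.0447 after these scalings) and PKP2 (−0.403 to 0.062 without single libraries, the highest without Holoclone replicate 3). The others changed sign only without a library: DSG3 for Holoclone against Paraclone in Panc1 (−0.0019 to 0.0023), PERP for Holoclone against parental in Panc1 (−0.027 without Holoclone replicate 2, up to 0.377), and DSC3 between Holoclone cells (−0.114 to 0.145) and in the interaction (−0.117 to 0.142), where Panc1 Holoclone replicate 3 and Panc89 Holoclone replicate 1 gave the values under 0. The cause of these changes was not tested. Over all genes, that fold change threshold lowered each count by over 1.5 times (from 10623 to 6020 between parental, 10583 to 5996 between Holoclone and 9767 to 5271 between Paraclone cells, from 6006 to 1860 in Panc1 and 5746 to 2124 in Panc89 for Holoclone against Paraclone, from 5655 to 3292 for the interaction, and against parental cells from 1759 to 516 for Panc1 Holoclone, 4599 to 1279 for Panc1 Paraclone, 3981 to 1369 for Panc89 Holoclone and 3120 to 1184 for Panc89 Paraclone), a fit of the groups alone gave 3377 in place of 5746 for Holoclone against Paraclone in Panc89, and Panc1 Holoclone against parental cells had 1061 without Holoclone replicate 3. Scaling moved the share of called genes that were higher from 73.3% to 50.2% (upper quartile) and 47.7% (median of ratios) for Holoclone against Paraclone in Panc1, from 62.8% to 54.0% and 49.3% in Panc89, from 42.0% to 53.1% and 51.5% for the interaction, from 41.6% to 49.6% and 51.8% between parental cells, from 53.7% to 42.3% and 46.5% for Panc1 Holoclone, from 25.6% to 47.2% and 53.0% for Panc1 Paraclone and from 65.2% to 51.4% and 51.0% for Panc89 Holoclone against parental cells. The replicate number as a block moved the members called from 6 to 4 for Panc89 Holoclone against parental cells, and no other count within a line. Between parental cells the count went from 9 to 8 (PERP −0.25, adjusted p = 0.354). The block was coded within each line with replicate 1 as reference, so its differences between the lines are those at replicate 1. The loss of PERP can therefore not be read as an effect of blocking. In 11 of 36 cases a library correlated best with its own number in another group of its line, so the numbers were not read as a pairing.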
